A study of Mus musculus with 9 samples.

Results

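The distal segment of mouse chromosome 7 is the stretch that starts beyond 100 Mb in the coordinates of the files, far from the centromere, and ends at the chromosome's last probe. It holds 6972 of the 19355 probes on chromosome 7 and of the 384942 probes on each array. Averaged in windows of 100 kb with at least 5 probes, these gave 451 windows, out of 1309 on chromosome 7 and 24953 in the genome, with 1 sparse window left out. A window held a median of 16 probes and between 5 and 22. The segment begins 54.75 Mb from the viewpoint, the locus whose contacts were measured, and ends 99.9 Mb from it. The rule that sets its members uses position alone and no measured value.

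The viewpoint is Dbp, which encodes a transcription factor whose own transcription follows the circadian clock. In chromosome conformation capture-on-chip (4C), DNA that lay close to the viewpoint in crosslinked nuclei is ligated to it, amplified outward from it and hybridized to a tiling array. Loci on the same chromosome are generally caught more often than loci on others, and the signal falls steeply near the viewpoint. Far away, contacts are known to come in patches, because active and inactive stretches of chromatin tend to gather separately into what are called compartments. Distal mouse chromosome 7 is known for an imprinted gene cluster that includes Igf2 and H19. In the GRCm38.p6 annotation its last protein-coding genes include Fgf3, Fgf4 and Fgf15, which encode fibroblast growth factors, and Ccnd1, which encodes a cyclin. Bmal1 itself (Arntl) also lies on chromosome 7 there, farther from the centromere than Dbp. The sources used here do not give the genome build of the files, so no gene is placed in a window below.

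The 9 samples were mouse embryonic fibroblasts, each grown from embryos of embryonic day 13, treated with dexamethasone for 2 h to synchronize their clocks and harvested at a circadian time (CT) in hours. A Bmal1-/- line, which lacks a core activator of the clock, was sampled at CT22 and CT34. An independent wild-type (WT) line 2 was sampled at the same 2 times, and WT line 1 at CT22, 26, 30, 34 and 46. The embryos of the Bmal1-/- line and of line 1 were siblings from a single mating scheme, and both lines shared a growth medium. Line 2 came from another cross and grew in a medium with another serum, and its array names carry 24 and 36 h in place of the labelled times. Each line and time is 1 array. The Bmal1-/- cells are 1 line, so genotype and line cannot be told apart. Bmal1 lies on the chromosome described here, and its place relative to the segment was not determined in the files' coordinates. The part of that locus in differences between Bmal1-/- and WT cells was not tested. The arrays measure DNA contacts, so neither the cell type nor the loss of Bmal1 was checked by expression.

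Each probe's value is the log2 ratio of its 4C signal to that of genomic DNA, centred on the array's median. The arrays of line 2 had a narrower spread: the SD of probes off chromosome 7 averaged 0.92 in Bmal1-/- cells (n = 2), 0.35 in line 2 (n = 2) and 0.77 in line 1 (n = 5). A second measure was therefore used that each array scales for itself. High probes were those above the 95th percentile of the probes off chromosome 7 on the same array, so 5% of probes are high by construction off that chromosome.

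The segment as a whole lay above the array median in every array. The mean log2 ratio over the 451 windows was 1.55 at CT34 and 1.22 at CT22 in Bmal1-/- cells. In WT line 2 it was 0.31 at CT34 and 0.22 at CT22. In WT line 1 it was 1.28, 1.23, 1.32, 1.32 and 1.37 at CT22, 26, 30, 34 and 46. The Bmal1-/- values fell on both sides of the line 1 range, and both line 2 arrays were lower than every other array.

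The share of high probes in the segment also set line 2 apart. It was 31.2% at CT34 (95% exact Clopper-Pearson interval 30.1% to 32.3%) and 28.2% at CT22 (27.2% to 29.3%) in Bmal1-/- cells. In line 2 it was 17.4% at CT34 (16.6% to 18.4%) and 13.5% at CT22 (12.7% to 14.3%). In line 1 it was 34.7%, 35.7%, 34.9%, 32.2% and 33.9% at the 5 times in order. These intervals cover counting error over probes only, and neighbouring probes are not independent. Every array exceeded the 5% of the rest of the genome, and both Bmal1-/- arrays lay below all 5 line 1 arrays on this measure.

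**Figure D1:**
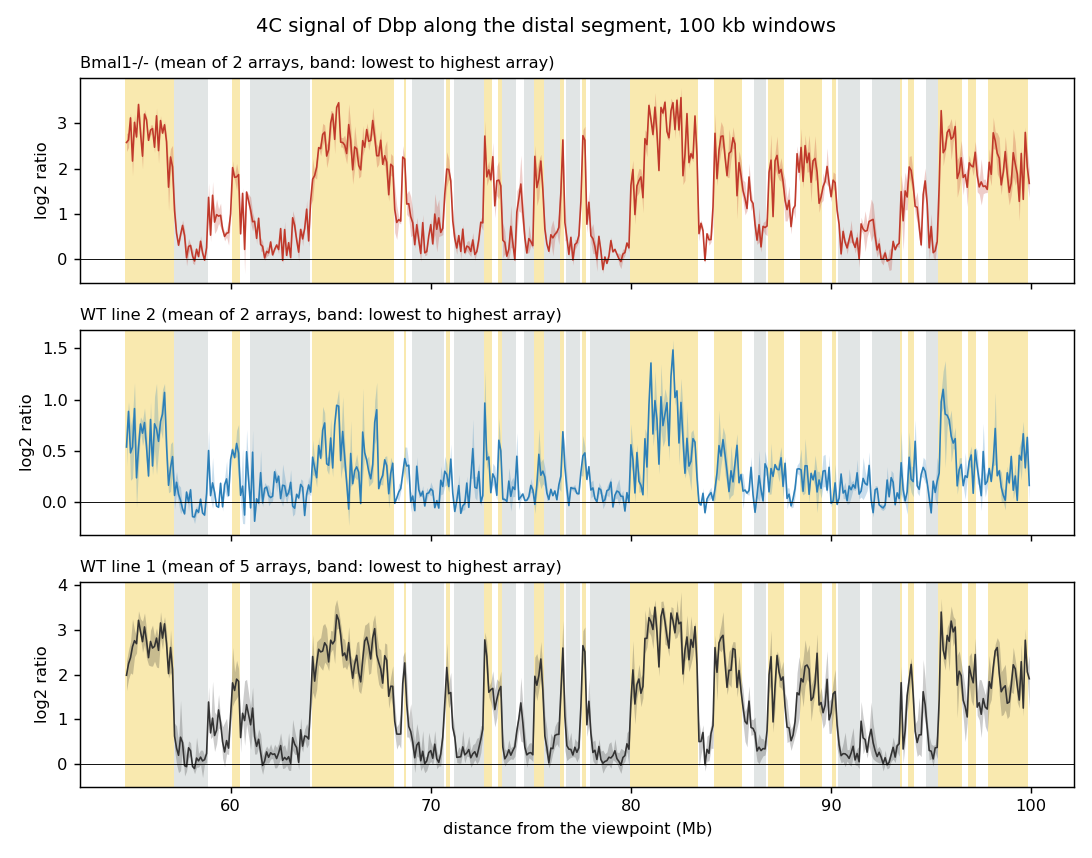
Window means of the log2 ratio (vertical axis) against distance from the viewpoint in Mb (horizontal axis) for Bmal1-/-, WT line 2 and WT line 1, with the band from the lowest to the highest array. Yellow marks the 20 contact blocks and grey the 13 deserts, both chosen in line 1. Peaks and troughs coincide in Bmal1-/- and line 1, and line 2 follows them more loosely on a smaller vertical scale (r of 0.624 to 0.721 between its arrays and those of line 1).

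Distance did not order the signal within the segment. Across the 451 windows of an array, the correlation of the window mean with distance from the viewpoint lay between 0.00047 and 0.079 over the 9 arrays, where neighbouring windows share chromatin and all windows share an array. The correlation with the number of probes in a window was between -0.085 and -0.027. In place of a decline, the signal alternated in large steps. In bins of 5 Mb from 100 Mb onward, Bmal1-/- cells averaged 1.56, 0.90, 2.00, 0.87, 0.66, 2.16, 1.62, 0.77 and 1.90. Line 1 averaged 1.49, 0.86, 1.88, 0.74, 0.67, 2.21, 1.44, 0.66 and 1.78, with SDs over its 5 arrays of at most 0.11 in these 9 bins. Line 2 averaged 0.31, 0.20, 0.32, 0.17, 0.15, 0.50, 0.22, 0.15 and 0.35. The bin that starts at 125000001 was the highest in each line.

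The spacing of these steps was about the same in the lines. Windows next to each other correlated with r = 0.82 in Bmal1-/- cells, 0.54 in line 2 and 0.83 in line 1, each the mean over that line's arrays. At 1 Mb apart the values were 0.37, 0.20 and 0.34 in the same order. At 2 Mb they were 0.075, -0.012 and 0.081, and at 3 Mb they were -0.18, -0.15 and -0.17. Likeness between windows was therefore lost within about 2 Mb and turned negative at 3 Mb in all 3 lines.

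A window was called a contact window in an array when its high probes were more than the share off chromosome 7 predicts (binomial test, one-sided, Benjamini-Hochberg adjusted over all 24953 windows at 0.05). Such a call describes 1 array. In Bmal1-/- cells 216 of the 451 distal windows were called at CT34 and 186 at CT22, where 3.23% and 2.67% of all windows of the genome were called. In line 2 there were 72 at CT34 and 34 at CT22, against 1.2% and 0.806% of all windows. In line 1 there were 216, 231, 226, 219 and 217 at the 5 times, against 3.46%, 4.02%, 3.7%, 3.22% and 3.32%. Between 47.9% and 51.2% of the distal segment was thus called in line 1, and each line 2 array had fewer calls than any array of the other lines.

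Most distal windows kept the same call over time in line 1, counting those that were never called. Of the 451 windows, 186 were called at all 5 times, or 41.2% against 2.06% of all windows in the genome. Another 190 were called at none, and 75 at 1 to 4 times, so 83.4% of windows had the same call at every time. With the 99th percentile as the limit for a high probe, 111 windows were called at all 5 times. Off chromosome 7, 5 of 23644 windows were called at all 5 times.

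Bmal1-/- cells called most of these windows and line 2 few of them. Both Bmal1-/- arrays called 178 distal windows, or 39.5% against 2.27% of all windows, 38.6% of the middle stretch and 49.6% of the centromere-proximal one. Of these, 165 were among the 186 of line 1, which is 92.7% of the Bmal1-/- windows and 88.7% of the line 1 windows. A further 17 of the 186 were called in 1 Bmal1-/- array and 4 in none. No window was called in both Bmal1-/- arrays and in no line 1 array. Both line 2 arrays called 27 distal windows, or 5.99% against 0.573% of all windows, and all 27 were among the 186 of line 1, of which they make up 14.5%. At least 1 line 2 array called 76 of the 186. These 27 were also the distal windows called in all 9 arrays, against 0.533% of all windows, 1.57% of the middle stretch and 20.1% of the centromere-proximal one. In the distal segment, 185 windows were called in none of the 9. Without the line 2 array at CT22, 67 distal windows were called in all the remaining arrays.

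The 4 windows that line 1 called at every time and Bmal1-/- cells never did start at 118200001, 120800001, 125200001 and 130500001. Their mean log2 ratios were 1.75, 1.52, 1.63 and 1.40 in Bmal1-/- cells and 1.66, 1.64, 1.41 and 1.71 in line 1, so only the last 2 differed by over 0.2, in opposite directions. The window at 118200001 had mean log2 ratios of 1.81 at CT34 and 1.69 at CT22 in Bmal1-/- cells and of 1.37 to 1.83 in line 1. Its share of high probes was 25% in Bmal1-/- cells and 43.8% in line 1. The log2 levels overlapped there while the calls differed, and the thresholds for a high probe were 2.73 at CT34 and 2.16 at CT22 in Bmal1-/- cells against 1.64 to 2.07 in line 1. The part of the thresholds in the differing calls was not tested.

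The constant windows formed blocks. Runs of windows called in all 5 line 1 arrays, joined across at most 1 other window, gave 20 contact blocks of 100 to 4100 kb with a median of 400 kb. Together they covered 196 windows, or 19.6 Mb, and the 7 blocks of at least 1 Mb held 156 of these windows (79.6%). Runs of at least 5 windows called in none of the 5 arrays gave 13 deserts of 500 to 3000 kb with a median of 1100 kb, 16.2 Mb in all. The other 93 windows lay in neither. The median number of probes in a window was 15 in blocks and 16 in deserts. Since line 1 chose the blocks and deserts, their levels in line 1 are a description: block means ran from 1.59 to 2.65 and desert means from 0.21 to 0.45.

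In the 4 arrays that took no part in the choice, blocks also averaged above deserts. Windows in blocks averaged 2.54 at CT34 and 2.12 at CT22 in Bmal1-/- cells, where windows in deserts averaged 0.44 and 0.30. In line 2 the blocks averaged 0.53 at CT34 and 0.38 at CT22, and the deserts 0.085 and 0.079. All 20 blocks lay above the highest desert in both Bmal1-/- arrays and in line 2 at CT34. In line 2 at CT22, 14 of the 20 did. The separation of blocks from deserts, in units of the array's SD off chromosome 7, was 2.07 at CT34 and 2.21 at CT22 in Bmal1-/- cells and 1.24 and 0.87 in line 2, against 2.44 to 2.89 in line 1, which chose them.

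**Figure D2:**
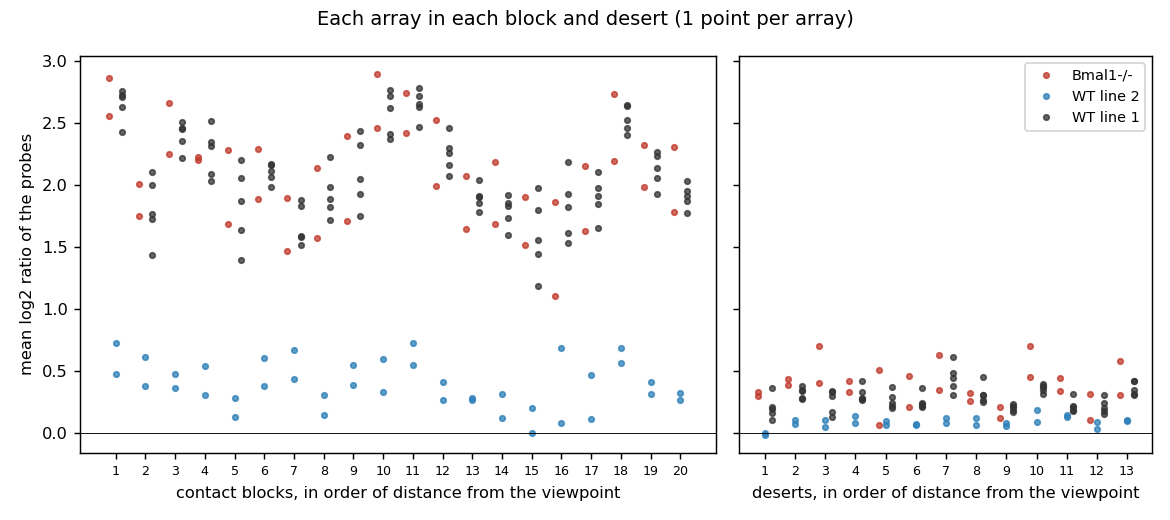
Mean log2 ratio (vertical axis) of each of 20 contact blocks and 13 deserts (horizontal axis, in order of distance from the viewpoint), with 1 point per array for Bmal1-/-, WT line 2 and WT line 1. Line 1 blocks averaged 1.59 to 2.65 and its deserts 0.21 to 0.45. Averaged over block windows, Bmal1-/- cells lay above all line 1 arrays at CT34 and below them all at CT22.

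A group of 5 blocks held the 27 windows called in all 9 arrays. Of these 5, the block with the highest share of high probes in line 1, 100000001 to 102400000, lies at the start of the segment and belongs to a run that begins 3200 kb before it, at 96800001. Its mean log2 ratio was 2.87 at CT34 and 2.56 at CT22 in Bmal1-/- cells, 0.73 and 0.48 in line 2, and 2.73, 2.43, 2.71, 2.63 and 2.76 at CT22 to CT46 in line 1. Bmal1-/- values lay within or just above the line 1 range, and 7 of its 24 windows were called in all 9 arrays.

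The block at 125200001 to 128600000 held the most such windows, 13 of 34. It averaged 2.75 at CT34 and 2.42 at CT22 in Bmal1-/- cells, 0.73 and 0.55 in line 2, and 2.66, 2.47, 2.72, 2.63 and 2.78 in line 1. The highest window of each line lay inside it, at 127700001 in Bmal1-/- cells, 127300001 in line 2 and 126400001 in line 1. The window at 127700001 had 3.79 at CT34 and 3.35 at CT22 in Bmal1-/- cells, 1.21 and 0.74 in line 2, and 3.03, 2.41, 3.49, 3.85 and 3.07 in line 1. The window at 127300001 had 3.47 and 3.45 in Bmal1-/- cells, 1.58 and 1.38 in line 2, and 3.11, 3.01, 3.31, 3.49 and 3.08 in line 1. These 2 windows lie more than 80 Mb from Dbp, and at both the Bmal1-/- values overlapped the line 1 range while the line 2 values stayed below it.

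The longest block, 109300001 to 113400000, averaged 2.66 at CT34 and 2.25 at CT22 in Bmal1-/- cells, 0.48 and 0.36 in line 2, and 2.45, 2.22, 2.46, 2.35 and 2.51 in line 1. Of its 41 windows, 40 were called in both Bmal1-/- arrays and 2 in both line 2 arrays. The block at 140600001 to 141800000 averaged 2.74 and 2.20 in Bmal1-/- cells, 0.68 and 0.56 in line 2, and 2.52, 2.46, 2.40, 2.65 and 2.64 in line 1. In both blocks the Bmal1-/- value at CT34 was above all 5 line 1 values, and in the second the value at CT22 was below them all. The short block at 117900001 to 118300000 averaged 2.29 and 1.89 in Bmal1-/- cells, 0.60 and 0.38 in line 2, and 2.16, 2.07, 2.11, 1.98 and 2.17 in line 1.

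The troughs between the blocks were chosen as uncalled at all 5 times of line 1, so their low level in line 1 follows from the choice. The longest desert, 106200001 to 109200000, had mean log2 ratios of 0.43 at CT34 and 0.39 at CT22 in Bmal1-/- cells, 0.11 and 0.076 in line 2, and 0.29, 0.35, 0.28, 0.38 and 0.34 in line 1. Its share of high probes was 8.11% and 7.40% in Bmal1-/- cells and 7.40% to 10.0% in line 1, against 5% off chromosome 7. The desert at 123200001 to 125200000 was the lowest of the 5 longest in Bmal1-/- cells, with 0.22 at CT34 and 0.12 at CT22 there and 0.18 to 0.24 in line 1. It adjoins the block at 125200001 that holds the highest windows. The remaining 3 of the 5 longest deserts, at 102400001, 114300001 and 116400001, averaged 0.32 to 0.55 in Bmal1-/- cells, -0.0035 to 0.11 in line 2 and 0.21 to 0.32 in line 1. The desert at 114300001 had 0.70 at CT34 and 0.40 at CT22 in Bmal1-/- cells, and it holds the 2 desert windows called in any Bmal1-/- array.

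Block edges fell at nearly the same windows in Bmal1-/- cells. Blocks built from the 2 Bmal1-/- arrays alone numbered 23. Of these, 21 overlapped a line 1 block, and 19 of the 20 line 1 blocks overlapped a Bmal1-/- block. Of 39 line 1 edges, 27 were at the same window in Bmal1-/- cells, 34 within 1 window and 37 within 2, and the largest distance was 600 kb. Averaged over 24 edges placed in line 1, the log2 ratio in the first window inside and the last window outside was 2.01 and 1.15 in Bmal1-/- cells and 0.34 and 0.19 in line 2. In line 1, which placed the edges, it was 1.93 and 0.97. In the fourth window inside, which rests on 22 edges rather than 24, the ratio was 2.26 in Bmal1-/- cells and 0.46 in line 2. In line 2 the difference between the first and the fourth window inside was nearly as large as that across the edge, while in Bmal1-/- cells the step across the edge was the larger one.

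**Figure D3:**
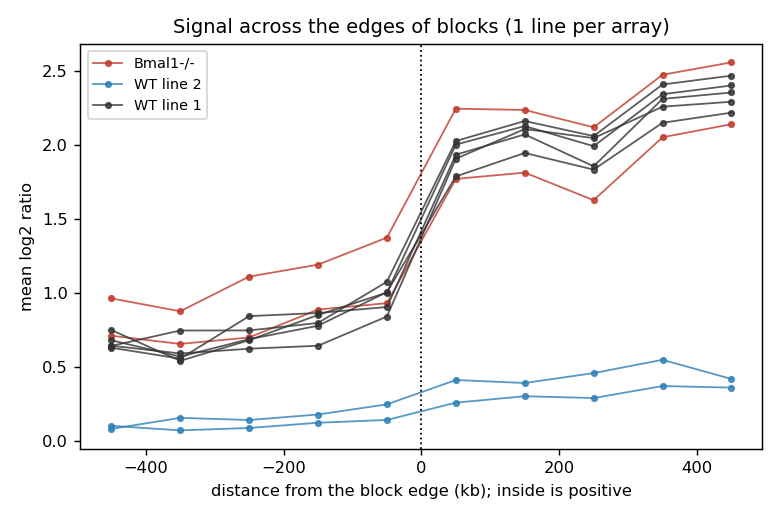
Mean log2 ratio (vertical axis) against distance from the block edge in kb (horizontal axis, positive inside the block), 1 line per array for Bmal1-/-, WT line 2 and WT line 1. The averages step up between the last window outside and the first inside, with 2.01 inside against 1.15 outside in Bmal1-/- cells and 0.34 against 0.19 in line 2.

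The block at the distal end, 143100001 to 145100000, ran up to the last full window of the chromosome. It averaged 2.31 at CT34 and 1.78 at CT22 in Bmal1-/- cells, 0.33 and 0.27 in line 2, and 1.87, 1.78, 1.92, 1.96 and 2.03 in line 1. None of its 20 windows was called in all 9 arrays. In the last 1 Mb the window at 144900001, nearly 100 Mb from Dbp, was the highest in Bmal1-/- cells and in line 1, with 2.92 and 2.68 in Bmal1-/- cells and 2.66, 2.82, 2.53, 3.02 and 2.80 in line 1. Line 2 had 0.39 and 0.28 there, and its highest window of the last 1 Mb was the one at 144800001, with 0.79 and 0.55. The final window, at 145100001, rests on 6 probes and had 1.98 and 1.36 in Bmal1-/- cells, 0.33 and 0.0033 in line 2, and 1.58, 2.43, 1.89, 1.26 and 2.37 in line 1. Line 1 varied more over time in this window than in the 9 windows before it.

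The end of the chromosome had more high probes than the average of the rest of the segment, although the bin that starts at 125000001 had higher log2 means than the last full bin in each line. The share of high probes in the last 5 Mb exceeded that in the rest of the distal segment by 13.1 percentage points on average, 40.8% against 27.8%, in 9 of 9 arrays. The exact paired permutation test over arrays was two-sided and gave p = 0.00391, the smallest it allows (0.00586 after Benjamini-Hochberg adjustment over 3 comparisons of segments). The difference was 15.9 points at CT34 and 12.6 at CT22 in Bmal1-/- cells, 6.55 and 5.97 in line 2, and 13.3 to 16.8 in line 1. It was smallest in both line 2 arrays. The 9 arrays come from 3 cell lines, so the test measures spread between arrays rather than between lines.

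Set against the other parts of chromosome 7, the segment lay below the centromere-proximal stretch (under 35 Mb) and near the middle one (55 to 100 Mb). The share of high probes was 12.1 points lower than in the proximal stretch, 29.1% against 41.2%, and lower in 9 of 9 arrays (exact paired permutation p = 0.00391, two-sided, adjusted 0.00586). The mean distance of that stretch from the viewpoint is shorter. Against the middle, the segment averaged 0.83 points higher, 29.1% and 28.3%, in 7 of 9 arrays, and the test did not pass (exact paired permutation p = 0.152, two-sided, adjusted 0.152). Against 75 to 100 Mb of the middle alone, the difference was 0.054 points (exact p = 0.941). Without the Bmal1-/- array at CT22 the mean difference was 1.21 points with an exact p of 0.0234.

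The 2 arrays that went the other way were those of Bmal1-/- cells. The distal minus middle difference in the share of high probes was -0.81 points at CT34 and -2.13 at CT22 in Bmal1-/- cells, 1.75 and 0.017 in line 2, and 0.89 to 2.93 in line 1. On the log2 scale it was -0.068 and -0.084 in Bmal1-/- cells, 0.033 and -0.0063 in line 2, and 0.086 to 0.12 in line 1. Bmal1-/- cells were lower than both WT lines together by 2.96 points with an exact permutation p of 0.0556, and lower than line 1 by 3.21 points with p = 0.0952, both two-sided. Each is the smallest p its design allows, so neither comparison could pass 0.05. The 2 groups did not overlap on either scale.

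**Figure D4:**
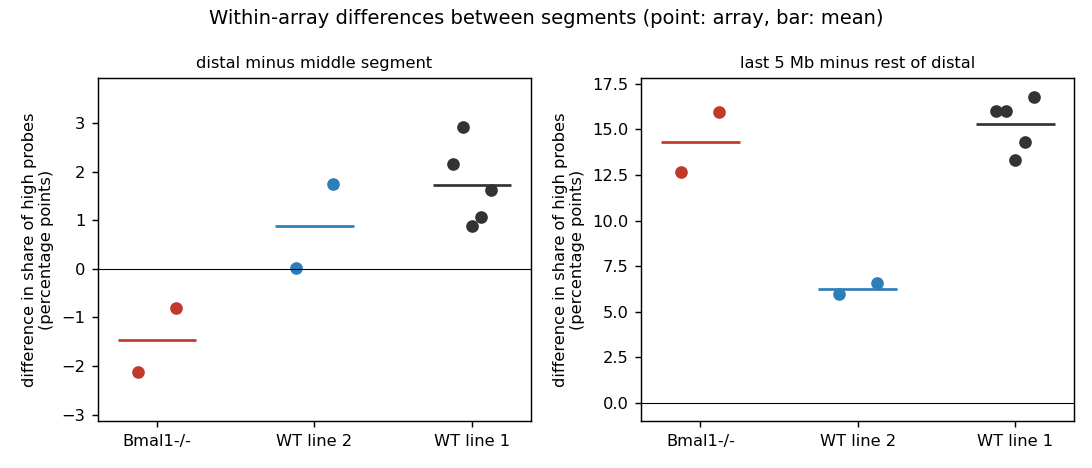
Within-array differences in the share of high probes, in percentage points (vertical axis), for Bmal1-/-, WT line 2 and WT line 1, with 1 point per array and a bar at each mean. Left, distal minus middle segment, below 0 in both Bmal1-/- arrays. Right, last 5 Mb minus the rest of the distal segment, above 0 in all 9 arrays.

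Whether the level of the whole segment depended on genotype could not be settled with 2 Bmal1-/- arrays. The mean log2 ratio was 1.39 ± 0.23 in Bmal1-/- cells (SD, n = 2) and 1.31 ± 0.052 in line 1 (SD, n = 5), a difference of 0.079 with an exact permutation p of 0.571 (two-sided, where the smallest possible is 0.0952). Divided by each array's SD off chromosome 7, the means were 1.50 ± 0.029 and 1.70 ± 0.057, a difference of -0.20 with an exact p of 0.0952, and after quantile normalization the difference was -0.11. The share of high probes was 29.7% ± 2.08 in Bmal1-/- cells and 34.3% ± 1.32 in line 1, a difference of -4.57 points (exact p = 0.0952). The direction thus depends on how the arrays are put on one scale, and without the Bmal1-/- array at CT34 the log2 difference was -0.083.

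Window by window, the profiles of Bmal1-/- cells and line 1 were about as alike as those of 2 times in line 1. Across the 451 windows, the correlation between a Bmal1-/- array and a line 1 array was 0.926 to 0.947 over 10 pairs, and between 2 line 1 arrays 0.930 to 0.947 over 10 pairs. Windows share the array and its spread, and these are descriptions. The mean Bmal1-/- profile had a slope of 0.95 on that of line 1. By block, the mean of the 2 Bmal1-/- arrays minus that of line 1 ran from -0.33 to 0.15 with a median of 0.0044. By these means, 10 of 20 blocks were higher in Bmal1-/- cells. The small median averages 2 arrays that lay on opposite sides of line 1. Over block windows they averaged 2.54 at CT34 and 2.12 at CT22, against 2.15 to 2.42 in line 1. The SD over the 5 times of line 1 was 0.078 to 0.32 in the same blocks. In 10 of 13 deserts the Bmal1-/- mean was the higher one. The median of Bmal1-/- minus line 1 was 0.092 over all windows of the genome and 0.062 over the distal ones, so a shift of this sign was not particular to deserts.

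Few distal windows separated the 2 lines at every array. Both Bmal1-/- arrays lay above all 5 line 1 arrays in 32 of 451 windows, where 13.7% of all windows in the genome did so, and below all 5 in 5 windows, against 2.11% of all. In the genome-wide fit of Bmal1-/- against both WT lines at CT22 and CT34, with time as a term, 0 of 451 distal windows passed an adjusted p of 0.05 in limma, and 0% of all windows did. At an unadjusted p under 0.05 there were 53, all higher in Bmal1-/- cells, against 14.5% of all windows. The median estimate over the segment was 0.60 in that fit and 0.058 against line 1 alone, so the low level of line 2 enters it.

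The 5 distal windows with the smallest p in that fit lay outside the blocks, 4 of them in deserts. The fit has no term for line, so the gap between the WT lines counts as error. At CT34 line 1 and line 2 averaged 2.30 and 0.53 in blocks but 0.31 and 0.085 in deserts. The place of these windows therefore cannot be read as a trait of deserts. The largest difference among the 5 windows was at 135100001, with 1.77 at CT34 and 1.59 at CT22 in Bmal1-/- cells, 0.46 and 0.23 in line 2, and 1.01, 1.41, 0.86, 0.68 and 0.97 in line 1. The estimate was 1.09 with an SE of 0.23 and an adjusted p of 0.281 in limma, and both Bmal1-/- arrays were above all 7 WT arrays. The window at 115600001 had 1.32 and 0.49 in Bmal1-/- cells, -0.061 and -0.050 in line 2, and between -0.046 and 0.16 in line 1, an estimate of 0.89 with an SE of 0.19 (adjusted p = 0.281 in limma). The windows at 102900001, 107900001 and 115100001 had estimates of 0.63, 0.46 and 0.41 with the same adjusted p in limma. The window at 135100001 passed when windows were taken as medians (adjusted p = 0.0413), and those at 115600001 and 102900001 with a trended, robust eBayes (0.0178 and 0.000291 in limma).

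The change between CT34 and CT22 was smaller than the difference between the WT lines. CT34 minus CT22 in the mean log2 ratio of the segment was 0.32 in Bmal1-/- cells, 0.087 in line 2 and 0.036 in line 1 (exact paired permutation over 3 lines, two-sided p = 0.25, the smallest possible). The SD of probes off chromosome 7 was 1.01 at CT34 and 0.82 at CT22 in Bmal1-/- cells. With each array divided by its own SD, the change was 0.042 in Bmal1-/- cells, 0.22 in line 2 and -0.16 in line 1 (exact p = 0.75). In the share of high probes the change was 2.94 points in Bmal1-/- cells, 3.94 in line 2 and -2.50 in line 1 (exact p = 0.5). The middle of the chromosome gave 1.62, 2.21 and -1.40 points in the same order. No direction was shared by the 3 lines on this measure.

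**Figure D5:**
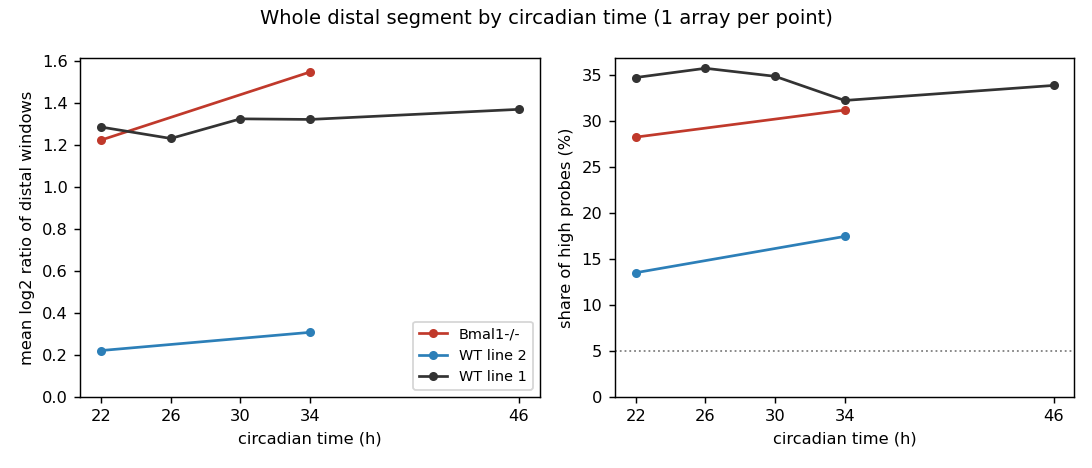
Mean log2 ratio of the 451 distal windows (left) and share of high probes in percent (right, dotted line at 5%, the share off chromosome 7) against circadian time in hours, 1 array per point for Bmal1-/-, WT line 2 and WT line 1. Line 1 stays between 1.23 and 1.37 and between 32.2% and 35.7% over its 5 times.

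No single window passed a test of time. In WT cells, CT34 was fitted against CT22 over both lines without a term for line, so the gap between the lines counted as error. This gave 0 of 451 distal windows at an adjusted p of 0.05 in limma, and 0% of all windows. At an unadjusted p under 0.05 there were 4, against 0.293% of all. The smallest p was at 102500001, in the desert next to the first block, where line 2 had 0.30 at CT34 and 0.090 at CT22 and line 1 had 0.49 and -0.00071, an estimate of 0.35 with an SE of 0.12 (adjusted p = 1 in limma). With line as a term in the CT34 against CT22 fit, 0 distal windows passed as well. At an unadjusted p under 0.05 in limma there were then 60, of which 49 were higher at CT34, against 584 of all 24953 windows. The fit of a 24 h rhythm to the 7 WT arrays with line as a term gave 0 distal windows and 0% of all windows, and 59 distal windows at an unadjusted p under 0.05, against 4.85% of all. The window with the smallest p, 142400001, had 2.57, 2.00, 2.17, 2.82 and 2.69 at CT22 to CT46 in line 1 and a fitted amplitude of 0.74 (adjusted p = 0.906 in limma). Its fitted peak, 15.6 h into the 24 h cycle, falls between CT34 and CT46, where no array was taken. That amplitude is therefore an extrapolation. Over all distal windows the SD over the 5 times of line 1 was 0.035 to 0.66 with a median of 0.23, while the SD of the line 1 mean over the 451 windows was 1.01.

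The test of whether the CT34 minus CT22 difference depends on genotype gave 0 of 451 windows and 0% of all windows at an adjusted p of 0.05 in limma. At an unadjusted p under 0.05 there were 9 distal windows, all with the more positive change in Bmal1-/- cells, against 4.45% of all. The smallest p was at 138800001, with 1.50 at CT34 and 0.18 at CT22 in Bmal1-/- cells, 0.24 and 0.0085 in line 2, and 0.11 and 0.023 in line 1, an interaction of 1.16 with an SE of 0.17 (adjusted p = 0.930 in limma). This window is among the 3 that were called in a Bmal1-/- array and in no line 1 array. Line 1 had 0.86 there at CT26 and 0.51 at CT46, so it was not at 0 throughout in WT cells. The shared direction at an unadjusted p under 0.05 depended on the scale. After division by the SD off chromosome 7, 5 of 9 such windows had the more positive change in Bmal1-/- cells, and after quantile normalization 3 of 7. The fit has no term for line. With one, 98 distal windows had an unadjusted p under 0.05 in limma, 91 of them more positive in Bmal1-/- cells, against 3689 of all 24953.

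The 2 WT lines gave the most calls of the 5 genome-wide fits. At matched times, 254 of 451 distal windows passed an adjusted p of 0.05 in limma, against 6.39% of all windows, and all 254 were lower in line 2. The median over the segment was -0.90. The window with the smallest p, 141200001, had 0.90 at CT34 and 0.39 at CT22 in line 2 and 3.53 and 3.02 in line 1, an estimate of -2.63 with an SE of 0.084 (adjusted p = 0.00233 in limma). It did not pass after division by the SD off chromosome 7 (adjusted p = 0.0668 in limma). Without a term for time the adjusted p was 0.0192 in limma, and in that fit it was 0.0915 without the line 2 array at CT22 and 0.0554 without that at CT34. After each array was divided by its SD off chromosome 7, 70 windows passed, again all lower in line 2, and the median was -0.79 in SD units. In a fit without a term for time, 56 passed without the line 2 array at CT22 and 89 without that at CT34. The fit has 4 arrays, and cross, medium and array spread differ together between the lines, so their parts cannot be told apart.

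The order of windows was shared between the WT lines more loosely than between line 1 and Bmal1-/- cells. The correlation between a line 2 and a line 1 array was 0.624 to 0.721 over 10 pairs, and 0.712 between the 2 line 2 arrays themselves. The slope of the line 2 profile on that of line 1 was 0.20. Of the distal windows, 2 were called in a line 2 array and in no line 1 array. At 117300001, line 2 had 0.81 at CT34 and 0.24 at CT22, and line 1 had 0.0029 to 0.43. At 139400001, line 2 had 0.80 and 0.39, and line 1 had 0.45 to 0.90. Each was called at CT34 alone, and in the second the log2 levels of the lines overlapped.

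Measured against chromosome 7 itself, few distal windows were called. With the share of high probes on chromosome 7 beyond 2 Mb from the viewpoint as the comparison, 1 distal window was called at CT34 and 10 at CT22 in Bmal1-/- cells, 3 and 1 in line 2, and 14 to 26 in line 1. Of all windows in the genome, 0.0521% and 0.208% were called in Bmal1-/- cells, 0.132% and 0.132% in line 2, and 0.192% to 0.389% in line 1. The comparison share was 32.4% and 30.8% in Bmal1-/- cells, 19.3% and 16.7% in line 2, and 33.3% to 35.9% in line 1. A distal window holds a median of 16 probes, so only windows with a share far above this could pass. A block well above the deserts can therefore go uncalled. By this comparison 4 windows were called in all 5 line 1 arrays, against 0.0761% of all, starting at 100600001, 110600001, 126400001 and 126800001. They lie in 3 of the blocks named above and had high probes at 84.2%, 76.3%, 84.1% and 73.5% in Bmal1-/- cells, 31.6%, 44.7%, 52.3% and 47.1% in line 2, and 86.3%, 87.4%, 89.1% and 89.4% in line 1. None of the 4 was called in all 9 arrays, although the share of high probes exceeded the comparison share in each line.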

How the data were processed

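Per the file headers, the authors deposited 1 log2 ratio per probe and array, written by NimbleScan and shifted by a biweight mean. Per the labels, Cy5 marked the 4C DNA and Cy3 the genomic DNA of those cells after HindIII and Csp6I digestion. The log base is NimbleScan's convention and is not written in the files. The sources used here do not give the build, any background correction or filters. All arrays had this dye orientation.

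Each array was centred on its median. Blocks and deserts were built from line 1 alone. Window means went into lmFit and eBayes of limma 3.58.1 (R 4.3.3), fitted and adjusted over all 24953 windows. Single values were compared by exact permutation over arrays. The rest used Python 3.11.15, scipy 1.17.1, pandas 2.3.3, numpy 2.4.6 and matplotlib 3.10.9. The viewpoint was taken as the window from 45200001 to 45300000, where the mean over 11 neighbouring windows peaked. The number of arrays limits the precision. The calls and fits were also run on simulated data with independent noise. Neighbouring probes and windows here are not independent, so this does not give the error rate of the calls in these data.

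WT CT22 and CT34 each have 1 array of line 1 and 1 of line 2, so per the labels a replicate number marks a line. The line differences at the 2 times correlated across windows (r = 0.748 over all windows, 0.873 over the 451 distal ones). The p-values measure the spread between these arrays.

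Named regions followed a rule: up to 10 blocks with a window called in all 9 arrays (5 had one), the longest block, the 5 longest deserts, the highest window of each line, the 5 smallest p-values of each fit and the last 1 Mb. The block at the distal end and the windows described for their calls were added after their values were seen. The segment, its windows and these rules were chosen with earlier results of these data known.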

Additional observations from a re-analysis of the deposited data

Results flagged for a closer look

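The CT34 minus CT22 change in the share of high probes of the distal segment ran in opposite directions in the 2 WT lines. It was 2.94 percentage points in Bmal1-/- cells, 3.94 in WT line 2 and -2.50 in WT line 1, with 1 array behind each time and line. The difference between the lines was not tested, since each line gives a single change. The mean log2 ratio was higher at CT34 in all 3 lines, so the direction in line 1 depends on the measure.

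The distal minus middle difference in the share of high probes had the opposite sign in the 2 genotypes, but it was close to 0 in line 2 at CT22. It was -0.81 points at CT34 and -2.13 at CT22 in Bmal1-/- cells, 1.75 and 0.017 in line 2, and 0.89 at its lowest and 2.93 at its highest in line 1. On the log2 scale line 2 at CT22 had -0.0063, the sign of Bmal1-/- cells. Against 75 to 100 Mb alone, the mean difference over all arrays was 0.0544 points. The exact permutation p was 0.0952 for Bmal1-/- against line 1, the smallest this design allows. No cause was tested, and the single Bmal1-/- line and the genotype cannot be told apart.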

How the results depend on the processing

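With line as a replicate block, 0 distal windows passed for WT CT34 against CT22, for Bmal1-/- against WT and for the interaction. The block thus changed no call. At an unadjusted p under 0.05 in limma there were 60, 68 and 98 distal windows, against 584, 2825 and 3689 of all 24953. Without the block, the rhythm fit gave 0, and 7 at an unadjusted p under 0.05, against 423 of all. Under every other alternative run, the counts for WT CT34 against CT22, the interaction and the rhythm were 0. For Bmal1-/- against WT, 2 windows passed with window medians, against 16 of all windows, and 2 with a trended, robust eBayes, against 379 of all. A fit in 1 Mb windows over 5 line 1 and 2 Bmal1-/- arrays was chosen after seeing the data. There 2 windows passed, both higher, against 254 of all 2518. After division by the SD off chromosome 7, 11 passed in that fit, 1 higher and 10 lower, against 145 of all 2518. The 254 windows lower in line 2 became 151 after quantile normalization, 87 with window medians, 70 after division by the SD off chromosome 7 (41 also without a term for time), 43 of 45 in 1 Mb windows, and 56 to 339 when 1 array was left out, a fit without time that was chosen after seeing the data (56 without line 2 at CT22, 89 without line 2 at CT34). Over all windows of the genome, 1595 passed in the main fit of the WT lines, 725 after quantile normalization and 243 with window medians. After division by the SD off chromosome 7, 201 passed (133 also without a term for time), and in 1 Mb windows 1360 of 2518 did. Bmal1-/- minus line 1 in the mean log2 ratio turned to -0.195 after division by the SD, -0.106 after quantile normalization and -0.0829 without the Bmal1-/- array at CT34, and ran from -0.0829 to 0.241 over the arrays left out. The distal minus middle share was 0.0544 points against 75 to 100 Mb alone and ran from 0.573 to 1.21 points with 1 array left out, distal minus proximal from -12.5 to -11.9, and the last 5 Mb minus the rest from 12.6 to 13.9 (5.36 at the 99th percentile). The 27 windows called in all 9 arrays became 16 at the 90th percentile, 42 at the 99th, 59 with adjustment over chromosome 7 alone, 0 against the share on chromosome 7, and 27 to 67 with 1 array left out, the highest without line 2 at CT22. The 186 windows called at all 5 times in line 1 became 111 at the 99th percentile and 4 against the share on chromosome 7. The 20 blocks became 4 against the share on chromosome 7, and 20 to 22 with 1 line 1 array left out. The interaction could not be fitted without either Bmal1-/- array and was not run there. Of the values of named windows and blocks, 125 stayed on their side of the threshold or within their spread and 10 did not under other processing, and 121 did and 4 did not with 1 array left out. The causes were not tested.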

Other observations

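Inside the desert at 114300001 to 115900000, the Bmal1-/- array at CT34 stood apart from all other arrays over 3 neighbouring windows, chosen after their values were seen. At 115400001 the log2 ratio was 1.44 at CT34 and 0.54 at CT22 in Bmal1-/- cells, -0.041 and -0.061 in line 2, and 0.21 to 0.75 in line 1. At 115500001 it was 1.15 and 0.15 in Bmal1-/- cells, -0.0077 and 0.042 in line 2, and -0.10 to 0.30 in line 1. At 115600001 it was 1.32 and 0.49 in Bmal1-/- cells, -0.061 and -0.050 in line 2, and -0.046 to 0.16 in line 1. The first and last of these were called as contact windows in that array and in no other, and they are the 2 desert windows called in any Bmal1-/- array. The fits gave adjusted p-values of 0.930 for the interaction at 115500001 and 115600001 (limma), so this single array is given as values without a call.

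The block at 138700001, a single window of 100 kb, was the one line 1 block with no window called in both Bmal1-/- arrays. It had 1.87 at CT34 and 1.11 at CT22 in Bmal1-/- cells, 0.69 and 0.083 in line 2, and 1.93, 1.54, 1.61, 1.83 and 2.18 in line 1. The next window toward the end is 138800001, which was called in a Bmal1-/- array and in no line 1 array.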
